A study of Macaca fascicularis with 24 samples.

Results

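The proteasome genes of the macaque thoracic aorta were compared between old and young animals of both sexes. Members were all probe sets (groups of short probes that read 1 transcript) whose single gene symbol in the platform annotation begins with PSM, a letter from A to G and a digit. This rule uses names alone and no measured value, though the set was chosen with earlier results of these data known. The rule found 65 probe sets of 41 genes among the 22215 probe sets of the array that are not controls. PSMC3IP and PSME3IP1 match by their first letters although their products are not proteasome subunits, and they were kept apart in the descriptions. Another 5 probe sets that list a proteasome gene beside other symbols, among them those of PSME2 and PSMA6, have no single name and were left out.

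The proteasome is the large protease that degrades proteins tagged with ubiquitin. Its barrel-shaped core is built from outer rings of alpha subunits (PSMA) and inner rings of beta subunits (PSMB), of which PSMB5, PSMB6 and PSMB7 carry the constitutive catalytic sites. The regulatory particle caps the core and has a base, with the ATPases (PSMC) that unfold substrates, and a lid (PSMD) that removes ubiquitin. Interferons induce PSMB8, PSMB9 and PSMB10, which take the place of the constitutive catalytic subunits in newly built cores. The resulting immunoproteasome is abundant in leukocytes and makes peptides for MHC class I. Activators (PSME) open the core without ubiquitin, PSMF1 inhibits it, and the PSMG and some PSMD products help to assemble it. Smooth muscle cells are the main cells of the aorta's middle layer.

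RNA was measured in 24 samples of thoracic aorta from cynomolgus macaques (Macaca fascicularis), 1 single-colour human expression array each, with 6 arrays in each of 4 groups. Per the labels, the mean age was 20.0 years in old males, 6.6 in young males, 21.2 in old females and 7.2 in young females. No treatment or genotype is named for any group. The study compared young with old animals within each sex, and nothing says which replicates are separate animals, so p-values measure the spread between samples, which may be technical.

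In 3 of 276 pairs of arrays (old females 1 and 4, young females 3 and 4, young males 3 and 4) the deviations from the other arrays correlated at 0.79 or more, against at most 0.57 in all other pairs. Each pair was averaged and counted as 1 sample under its lower number, which gave 6 old males, 5 young males, 5 old females and 5 young females. Another 6 samples stood apart from the rest: young male 1, young female 3, old males 2 and 4, and old females 2 and 6. Their median correlation with the other arrays was 0.81 to 0.83, against 0.88 to 0.93 in the other 15 samples. RNA quality, read from the actin controls as log2 of the 3′ signal over the 5′ signal, was 0.79 to 1.73 in these divergent samples and -0.25 to 1.15 in the rest. Adipocyte markers on the array were ADIPOQ, PLIN1, CIDEC, LEP and FABP4. Their summed intensity was 16487 to 28846.9 in young male 1, old males 2 and 4 and old female 2. It was 9346.6 in young female 3, 7212.3 in old female 6 and 826.7 to 13336.7 in the other 15 samples. The part of fat in the levels of the divergent samples was not tested. Values are given with all 21 samples and, where it matters, without these 6. That leaves 4 old males, 4 young males, 3 old females and 4 young females. The smooth muscle markers MYH11, ACTA2, TAGLN, CNN1 and LMOD1 were bright on all arrays, with summed intensities of 41618.5 to 134061.4. In bulk RNA, fewer cells of a type and less RNA per cell cannot be told apart.

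Levels are log2(intensity + 16) after quantile normalisation, and a difference between groups is on that log2 scale. A probe set was tested where its mean level over all arrays reached the median of these means, 7.59. That kept 11108 probe sets, 58 of them from the 65 proteasome probe sets, and each of the 41 genes had at least 1. The 7 dimmer ones read PSMB1, PSMF1, PSMC3IP, PSMD5, PSMD9, PSMC2 and PSMD4, with means of 5.50 to 7.38. The probes are human and the RNA is from macaques, so the level of 1 probe set cannot be set against that of another.

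No proteasome probe set passed the threshold in any of the 6 contrasts tested with limma (the age effect in each sex, its average over the sexes and its difference between them, and the sex difference at each age). The Benjamini-Hochberg adjusted p-values of all 58 stayed above 0.05, when 0.0180% of all tested probe sets passed for age in males, 0% for age in females, for its average and for its difference, and 0.0270% for sex at either age. At an unadjusted p below 0.05 there was 1 proteasome probe set in males, PSMB5, against a background of 3.36% of all tested probe sets. In females there were 3 of 58, all lower in old animals (PSMD3, PSMC1 and PSMD4), against 2.84% of all tested, or 1.81% counting only lower ones. The average over both sexes gave 0 (background 4.38%), and the difference of the age effects gave 1, PSMD3 (background 1.97%).

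In males, 30 of the 58 probe sets had a higher and 28 a lower mean in old animals, with a median log2 change of 0.0042. All tested probe sets had a median of -0.014 there, and 47.7% of them were higher. In old females, 42 of the 58 were lower and 16 higher, with a median of -0.10, where 54.4% of all tested probe sets were lower and their median was -0.028. The lower median in females rested on a few samples. Without old female 2 it was -0.0088, and without the 6 divergent samples it was 0.042, with 33 probe sets higher and 25 lower. Leaving these 6 samples out turned the sign of the age change for 12 of the 58 probe sets in males and 17 in females. The members' median had a pooled SD of 0.156 between samples of a group, which is more than any of these medians. That SD describes single samples and is larger than the error of a difference of group means. No test was made of these medians.

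**Figure D1:**
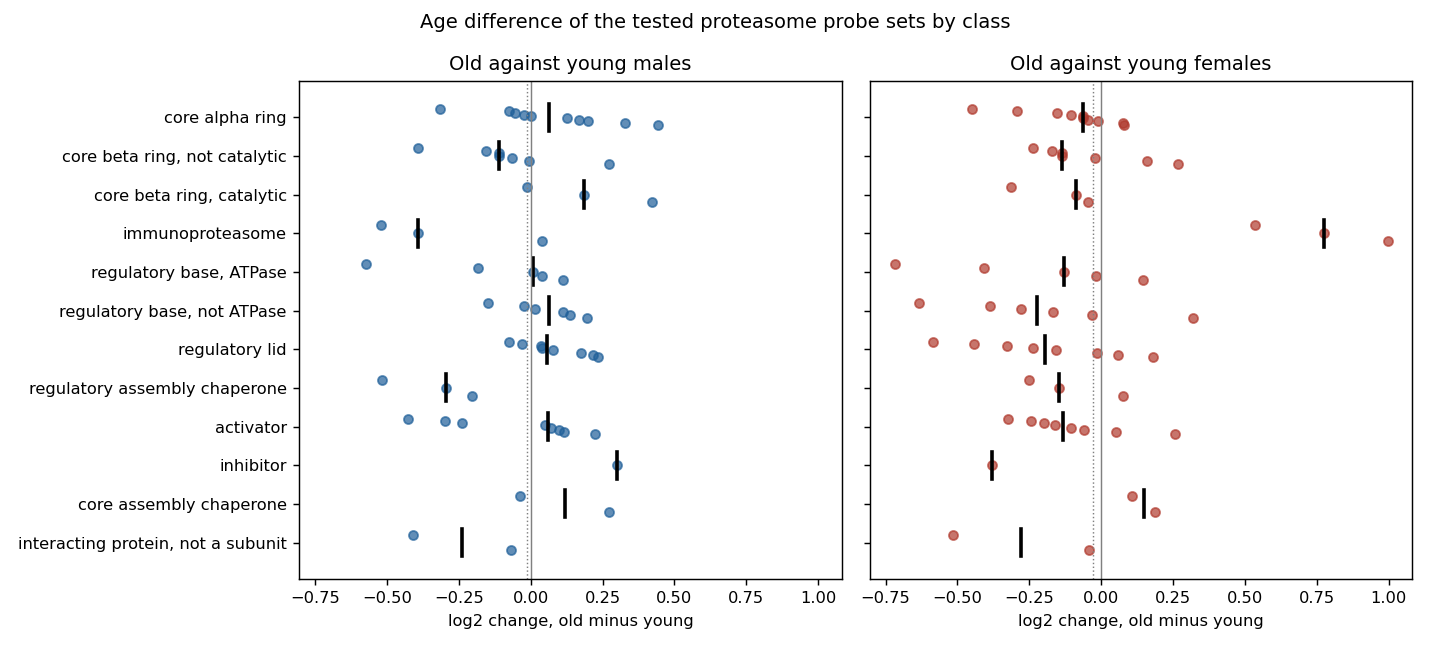
Log2 change of the 58 tested proteasome probe sets, old minus young, in males (left) and females (right), by role in the complex; each point is 1 probe set, the black bar is the class median, the solid line is 0 and the dotted line the median of all tested probe sets. In females the 3 immunoproteasome subunits lie at 0.54 to 0.996 and most other classes have medians below 0, while in males the class medians fall on both sides of 0.

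The 3 immunoproteasome subunits had higher means in old than in young females, and PSMB8 and PSMB10 had lower means in old than in young males, with errors too wide for any of these to pass. PSMB8 replaces PSMB5, PSMB9 replaces PSMB6 and PSMB10 replaces PSMB7 in the immunoproteasome core. PSMB8 (probe set 209040_s_at) read 8.25, 6.96, 9.83, 7.61 and 10.63 in old females 1, 2, 3, 5 and 6. In young females 1, 2, 3, 5 and 6 it read 6.39, 5.23, 9.31, 7.82 and 9.55. The groups overlapped widely, since the 2 highest young females lay above 3 of the 5 old ones. The log2 change was 0.996 ± 0.82 (SE; unadjusted p = 0.237; limma adjusted p = 0.9996). Leaving out 1 sample at a time moved it between 0.39, without young female 2, and 1.47, without young female 6.

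In males PSMB8 ran from 5.51 to 7.996 with a median of 7.82 in the 6 old animals. Young males 1, 2, 3, 5 and 6 read 6.14, 8.47, 8.75, 7.03 and 7.99. The lowest old values were those of old males 2 and 4 at 5.51 and 5.92, and the lowest young value was that of young male 1, all divergent samples. The age change in males was -0.52 ± 0.78 (SE) with all samples and -0.18 ± 0.71 without the divergent ones. The difference of the age effects, males minus females, was -1.52 ± 1.13 (SE, limma adjusted p = 0.9999).

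PSMB9 (204279_at) read 9.33, 9.60, 9.59, 10.02 and 11.28 in the old females, numbered as before. The young females read 8.90, 9.46, 10.07, 9.01 and 9.70. Old female 6 stood above all other samples, and the other 4 old females lay inside the range of the young. The age change was 0.54 ± 0.36 (SE, limma adjusted p = 0.9996) and dropped to 0.21 without old female 6. In males PSMB9 read 10.42, 8.80, 9.36, 9.08 and 9.32 in the young and 8.94 to 10.40, with a median of 9.32, in the old. Young male 1 and old male 4, both divergent, were the highest of their groups, and the change was 0.041 ± 0.35 (SE).

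PSMB10 (202659_at) read 8.08, 7.10, 9.12, 8.69 and 9.79 in the old females and 7.62, 8.83, 6.22, 7.66 and 8.57 in the young. The lowest young value belonged to the divergent young female 3. Its age change of 0.78 ± 0.60 (SE, limma adjusted p = 0.9996) was 0.39 without that sample, 0.47 without old female 6 and 1.14 without old female 2. In males it read 8.43, 7.94, 8.45, 8.07 and 8.001 in the young and 5.34 to 9.12, with a median of 8.11, in the old. The change of -0.39 ± 0.57 (SE) in males turned to 0.099 without old male 2, which had the lowest value of all samples.

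Without the 6 divergent samples all 3 subunits kept higher means in old females, with PSMB8 at 1.32 ± 0.77, PSMB9 at 0.38 ± 0.23 and PSMB10 at 0.46 ± 0.37 (SE; limma adjusted p from 0.911 to 0.929). In males the corresponding changes were -0.18 ± 0.71, 0.018 ± 0.21 and -0.048 ± 0.34.

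**Figure D2:**
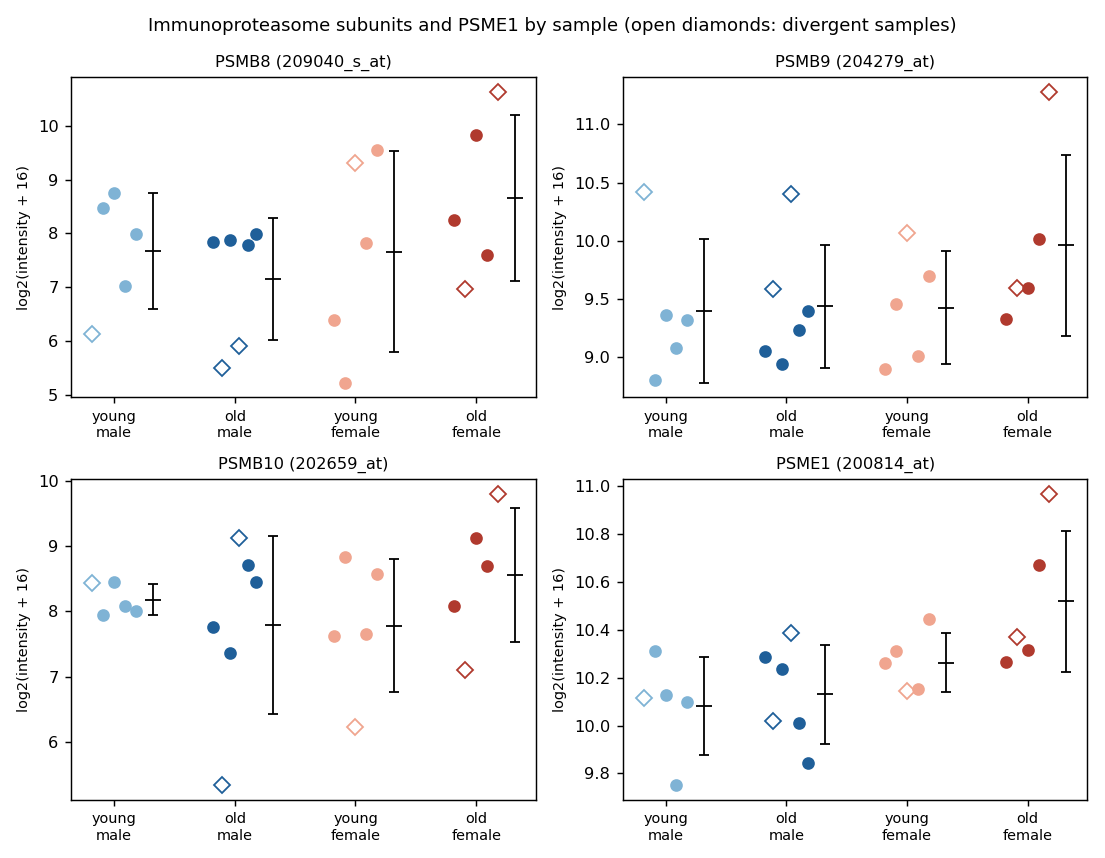
Levels, log2(intensity + 16), of PSMB8, PSMB9, PSMB10 and PSME1 in each of the 21 samples by group; filled circles are the 15 samples that did not stand apart, open diamonds the 6 divergent ones, and the bars give the group mean ± SD (n = 6 old males and 5 in each other group). Old female 6 is the highest sample in all 4 panels, and the old and young groups overlap in each.

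Old female 6 was the highest of the 21 samples for each of PSMB8, PSMB9, PSMB10 and PSME1. PSMB9 read 11.28 there against at most 10.42 elsewhere, and PSMB10 9.79 against at most 9.12. The same sample was also the highest for PTPRC, the pan-leukocyte phosphatase CD45, at 12.19 against at most 9.05, and for the interferon-response regulator IRF1 (10.31 against at most 9.37) and the peptide transporter subunit TAP1 (9.87 against at most 9.31). It ranked only 4 of 21 for HLA-B and 3 of 21 for B2M, the heavy and light chains of MHC class I.

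Markers of other cells also stood out in this sample, though not all of them. The summed intensity of the 4 macrophage and leukocyte markers on the array (CD163, MRC1, CSF1R and PTPRC) was 7117.1 in old female 6 and 1190.8 to 3974.9 in the other samples. PTPRC made up most of that sum. CSF1R was also the highest of the 21 samples there, at 10.24 against at most 10.06, while the macrophage genes CD163 and MRC1 ranked 8 and 5 of 21. The sum of the 4 T cell markers was 9284.2 against 596 to 1927.4. CD2 (9.14 against at most 8.46) and TRBC1 (11.96 against at most 10.29) were each the highest there. CD3D and CD3E lay below the filter over all arrays, so they are part of the sum but were not followed singly. The sum of the 2 B cell markers on the array was 1856.8 there, against 124.8 to 609.7. The smooth muscle sum, 41618.5, was the lowest of all. By group, the leukocyte sum spanned 1264.27 to 7117.13 in old females, 2084.9 to 2597.48 in young females, 1439.15 to 2600.45 in old males and 1190.83 to 2079.61 in young males. The share of these cells in the immunoproteasome levels was not tested. Without old female 6 the female age changes were 0.50 for PSMB8, 0.21 for PSMB9 and 0.47 for PSMB10.

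Since each immunoproteasome subunit takes the place of 1 constitutive subunit, their log2 difference within a sample was also compared between groups. Only the shift between groups can be read from it, because the probe sets differ in brightness. For PSMB9 minus PSMB6 the values in old females were -2.27, -1.44, -1.96, -1.22 and 0.12, and in young females -2.51, -2.11, -0.85, -2.53 and -1.88. The old minus young difference of the means was 0.62 in females and -0.14 in males. Old female 6 had the highest value of both female groups.

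For PSMB8 minus PSMB5 the shift was 1.04 in females and -0.94 in males, and without the divergent samples 1.16 and -0.31. For PSMB10 minus PSMB7 it was 1.09 and -0.38, and without the divergent samples 0.51 and -0.0090. All 3 differences had higher means in old females both ways, the groups overlapped for each, and no test was made of them. Old female 6 was the highest of the 21 samples for the pairs of PSMB9, PSMB8 and PSMB10, at 0.12, 0.66 and -0.38. The shifts without that sample alone were not computed. The pooled SD between samples of a group was 0.81, 1.74 and 0.85 in females for the pairs of PSMB9, PSMB8 and PSMB10, more than each shift except that of PSMB10. These SDs describe single samples and are larger than the error of a difference of group means.

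**Figure D3:**
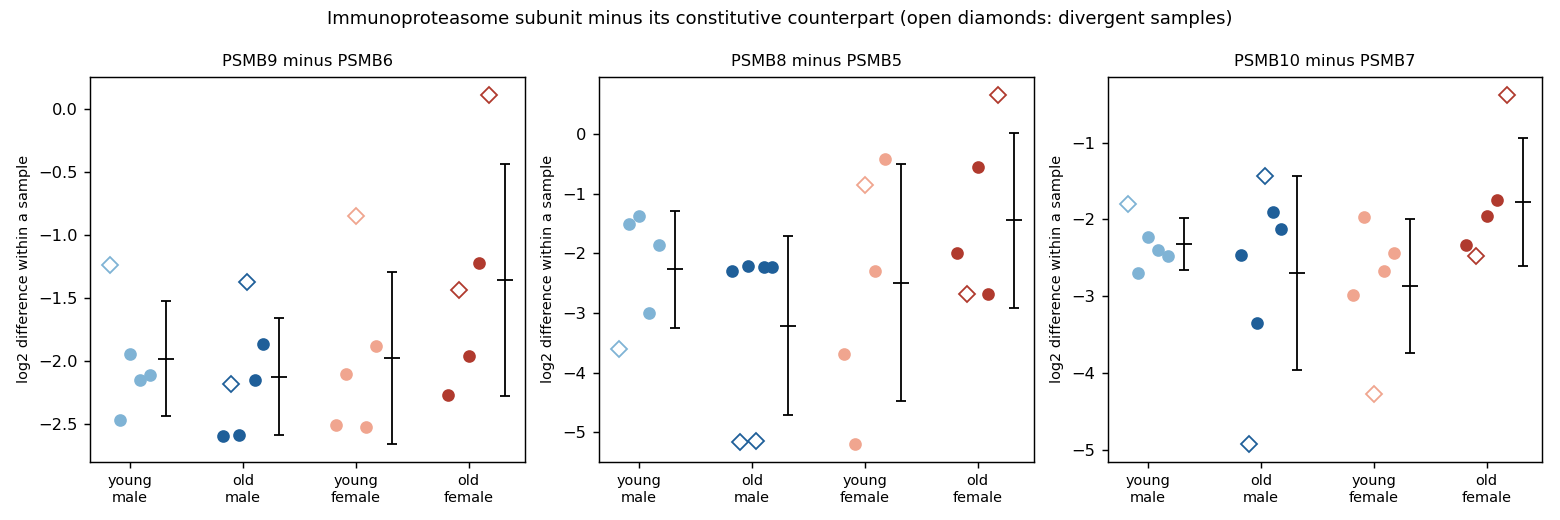
Log2 difference within a sample between each immunoproteasome subunit and the constitutive subunit it replaces, by group; circles are samples, open diamonds the 6 divergent ones, bars the mean ± SD. The female means are higher in old than in young animals in all 3 panels by 0.62, 1.04 and 1.09, and the points of both ages overlap.

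Across all 21 samples, 9 relations were computed between deviations from the group means, among PSMB8, PSMB9, PSMB10, PSME1, TAP1, PTPRC and the constitutive subunits. None passed the adjustment over the 9 relations, with adjusted permutation p-values of Pearson's r from 0.309 to 0.97. PSMB9 and PSMB10 correlated at an r of 0.28 (permutation p = 0.235, adjusted 0.439) and a Spearman rho of 0.45 (p = 0.0594, adjusted 0.534), and r was 0.13 without old female 6 and young male 1, the samples farthest from the median of PSMB9. Over the 15 samples that did not stand apart, the same r was 0.72 (permutation p = 0.0150, adjusted 0.135), rho was 0.72 (p = 0.0157, adjusted 0.141), and r was 0.78 without old female 5 and young female 6. The value thus rested on which samples were used. PSMB8 correlated at 0.065 with PSMB9 and at 0.21 with PSMB10 over all samples, and at 0.14 and 0.11 over the 15. In the gene order of the macaque RefSeq assembly T2T-MFA8v1.1, PSMB9 lies next to TAP1 and PSMB8 next to TAP2. PSMB9 and TAP1 correlated at 0.31 (adjusted permutation p = 0.464) over all samples, at -0.080 without old female 6 and young male 1, and at -0.089 over the 15.

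Among the constitutive core genes, PSMB5 had the smallest p in males and was higher in old animals. PSMB5 carries the chymotrypsin-like site, the main target of proteasome inhibitors. Its probe set 208799_at read 9.75, 9.99, 10.12, 10.02 and 9.84 in young males 1, 2, 3, 5 and 6. The 6 old males ran from 10.01 to 11.06 with a median of 10.18. The groups overlapped between 10.01 and 10.12, and the highest values, 10.67 and 11.06, came from the divergent old males 2 and 4. The change was 0.42 ± 0.19 (SE; unadjusted p = 0.0357; limma adjusted p = 0.9999), and 0.13 ± 0.13 without the divergent samples. In females it was -0.045 ± 0.20, and 0.16 without those samples. The difference of the age effects was 0.47 ± 0.27 (SE, limma adjusted p = 0.9999) with all samples and -0.032 ± 0.19 without the divergent ones.

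PSMA4, an alpha-ring subunit, was next in males. It read 9.84, 9.53, 9.50, 9.90 and 9.24 in the young and 9.53 to 10.56, with a median of 9.92, in the old, and its change was 0.44 ± 0.22 (SE; unadjusted p = 0.0528; limma adjusted p = 0.9999). Old males 2 and 4 were again the highest, and without the divergent samples the change was 0.24 ± 0.20. PSMA2, another alpha-ring subunit, had the third smallest p and a lower mean in old males. Its probe set 201316_at read 9.89, 9.61, 10.03, 9.54 and 10.06 in the young and 9.15 to 9.85, with a median of 9.52, in the old, a change of -0.32 ± 0.17 (SE, limma adjusted p = 0.9999), or -0.17 ± 0.18 without the divergent samples. The other PSMA2 probe set, 201317_s_at, was at 0.0019 ± 0.15 in males.

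By ring, 6 of 10 alpha-ring probe sets (PSMA1, PSMA2, PSMA3, PSMA4, PSMA5 and PSMA7) were higher in old males and 2 of 10 in old females, with medians of 0.063 and -0.063. All 3 constitutive catalytic subunits had negative values in females, -0.045 for PSMB5, -0.087 for PSMB6 and -0.31 for PSMB7. In males these were 0.42, 0.18 and -0.012. Without the divergent samples they were 0.16, -0.064 and -0.046 in females and 0.13, 0.15 and -0.039 in males. The 7 tested probe sets of the structural beta subunits PSMB1, PSMB2, PSMB3 and PSMB4 had medians of -0.11 in males and -0.14 in females. For the core as a whole without the immunoproteasome, 9 of 20 probe sets were higher in old males and 4 of 20 in old females, with medians of -0.0081 and -0.076. Without the divergent samples the female count was 14 of 20 and the median 0.12. The direction in females thus turned when old females 2 and 6 and young female 3, the divergent females, were left out.

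PSMB1 had the third smallest p for the difference of the age effects. Its probe set 200876_s_at read 10.47, 10.57, 10.57, 10.89 and 10.71 in young males and 10.47 to 11.53, with a median of 10.86, in old males. In females it read 10.66, 10.86, 11.11, 10.65 and 10.83 in the young and 10.67, 10.27, 10.95, 10.77 and 10.60 in the old. Both pairs of groups overlapped. The difference of the age effects was 0.44 ± 0.25 (SE; unadjusted p = 0.0867; limma adjusted p = 0.9999) and was 0.14 without the divergent samples. The second PSMB1 probe set, 214288_s_at, had the opposite signs, -0.15 ± 0.15 in males and 0.16 ± 0.16 in females.

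The members with the smallest p in females belong to the regulatory particle and were lower in old animals. PSMD3, a scaffold subunit of the lid, read 9.20, 8.89, 8.25, 9.42 and 8.83 in old females 1, 2, 3, 5 and 6, and 9.38, 9.70, 9.22, 9.52 and 9.70 in the young females. Old female 5 lay inside the young range and the other 4 old females below it. The change was -0.58 ± 0.19 (SE; unadjusted p = 0.00604; limma adjusted p = 0.9996), and it stayed between -0.71 and -0.42 when 1 sample at a time was left out. In males PSMD3 read 9.55, 9.10, 9.10, 9.51 and 9.43 in the young and 9.25 to 9.53, with a median of 9.34, in the old. The male change was 0.037 ± 0.18, and the difference of the age effects was 0.62 ± 0.27 (SE; unadjusted p = 0.0290; limma adjusted p = 0.9999).

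PSMC1, an ATPase of the base, was the only member whose old and young groups did not overlap, which held in females and not in males. In old females it read 10.16, 10.001, 9.88, 10.13 and 10.08, and in young females 10.56, 10.45, 10.66, 10.18 and 10.44. The highest old value, 10.16, lay just below the lowest young value, 10.18. It was 1 of 58 members in females, and 0.342% of all tested probe sets (0.180% with the old lower) had groups without overlap, while in males 0 of 58 members did against a background of 0.657%. The change was -0.41 ± 0.16 (SE; unadjusted p = 0.0182; limma adjusted p = 0.9996). In males PSMC1 read 10.64, 10.09, 10.47, 10.42 and 10.31 in the young and 10.08 to 10.76, with a median of 10.36, in the old, and the change was 0.041 ± 0.15, or -0.054 without the divergent samples. The difference of the age effects was 0.45 ± 0.22 (SE, limma adjusted p = 0.9999).

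PSMD4 is a ubiquitin receptor of the base, and its 3 tested probe sets disagreed in size. The one with the smallest p, 211609_x_at, is of a type whose probes can also bind other transcripts, per the array maker's suffix. In old females it read 10.29, 9.25, 10.25, 10.62 and 9.90, and in young females 10.90, 10.70, 10.02, 10.67 and 11.17. The groups overlapped, with 4 of the 5 young females above each of the old ones. The change was -0.63 ± 0.30 (SE; unadjusted p = 0.0483; limma adjusted p = 0.9996), whereas 200882_s_at gave -0.17 ± 0.19 and 210460_s_at -0.033 ± 0.17. In males 211609_x_at read 10.24, 10.87, 10.42, 10.63 and 10.78 in the young and 9.11 to 10.80, with a median of 10.65, in the old. Only the divergent old male 2 was below 10.62 among the old, and the change was -0.15 ± 0.29.

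**Figure D4:**
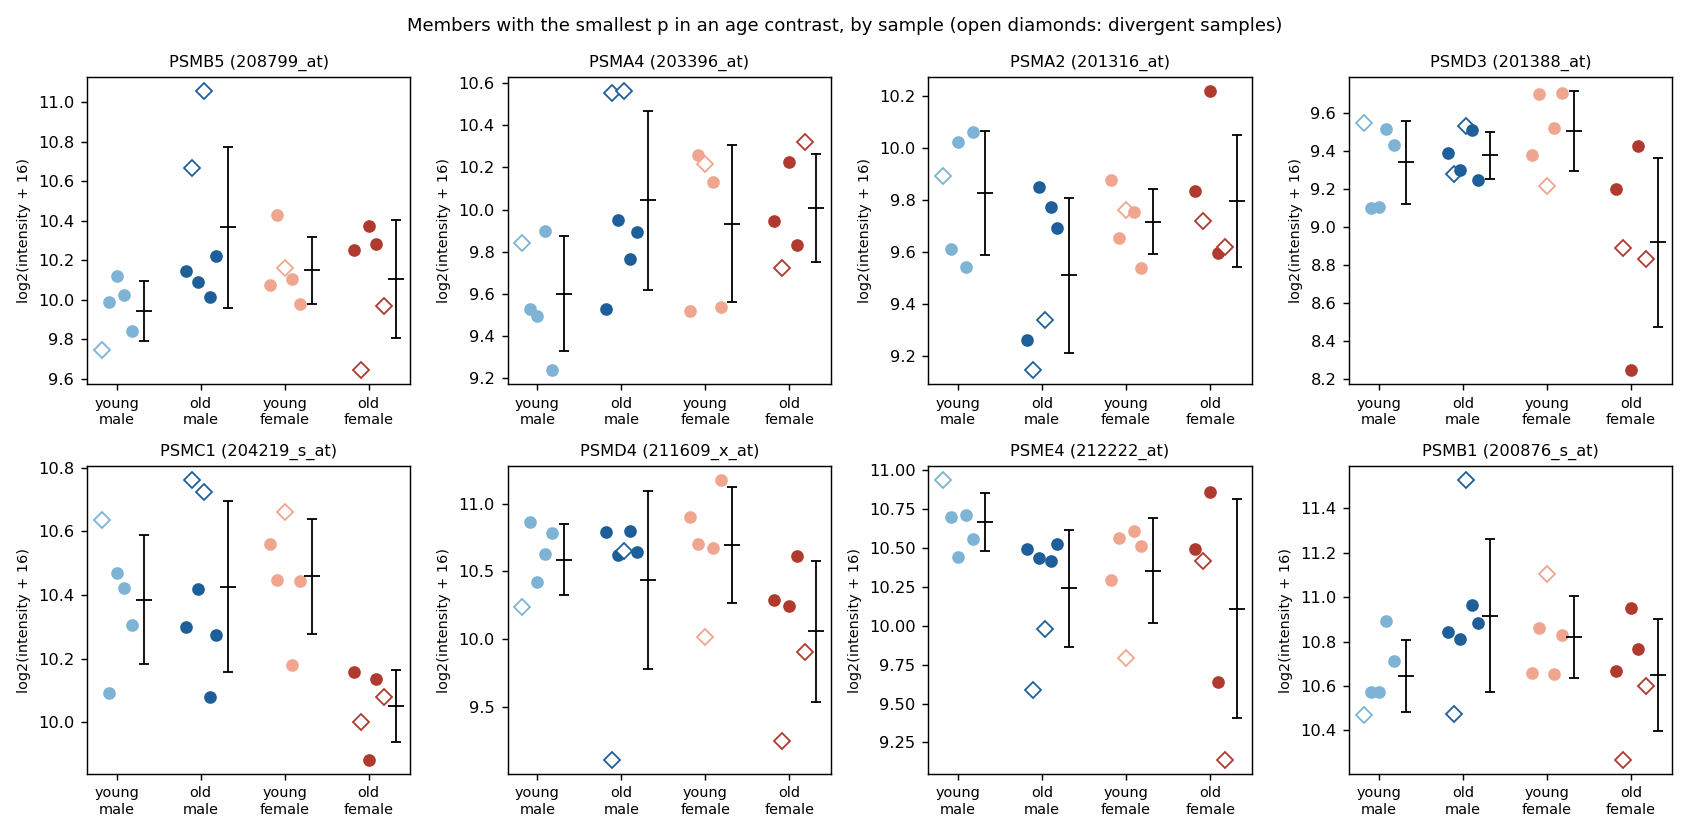
Levels, log2(intensity + 16), by sample and group for the probe sets with the 3 smallest p in any of the 4 age contrasts; circles are samples, open diamonds the 6 divergent ones, bars the group mean ± SD. PSMC1 has no overlap between old (9.88 to 10.16) and young females (10.18 to 10.66), while every other panel shows overlapping groups in both sexes.

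Without the divergent samples these 3 were again the members with an unadjusted p below 0.05 in females, PSMD4 at -0.48 ± 0.16, PSMC1 at -0.35 ± 0.15 and PSMD3 at -0.62 ± 0.23 (SE, limma adjusted p = 0.911 for each). These 3 of 58 stood against a background of 5.16% of all tested probe sets. The smooth muscle marker sum spanned 41618.5 to 116844 in old females and 58184.9 to 126886 in young females, against 98243.5 to 134061 in old males and 101014 to 115687 in young males. All 5 smooth muscle markers had lower means in old females, with a median change of -0.36 and none past the threshold, and in males the median was -0.052. The part of cell content in the lower values of PSMD3, PSMC1 and PSMD4 was not tested.

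The regulatory particle was read from 14 member genes, which do not include PSMC5, PSMD7 or PSMD13. Over these, 15 of 19 tested probe sets had lower means in old females and 4 higher, with a median of -0.17. In males 13 of 19 were higher, with a median of 0.038. In each of its 3 layers the female median was below 0, at -0.13 for the ATPases PSMC1, PSMC2, PSMC3, PSMC4 and PSMC6, -0.22 for the other base subunits PSMD1, PSMD2 and PSMD4, and -0.20 for the lid subunits PSMD3, PSMD6, PSMD8, PSMD11, PSMD12 and PSMD14. Values ranged from -0.72 ± 0.40 (SE) for PSMC3 to 0.32 ± 0.24 for PSMD2, which were -0.37 ± 0.19 and 0.087 ± 0.13 without the divergent samples. PSMD14, the lid enzyme that cleaves ubiquitin chains, was at 0.057 ± 0.25 in females and 0.076 ± 0.24 in males. Without the divergent samples the female median was -0.015, with 8 of 19 probe sets higher, and the male median 0.053, with 16 of 19 higher. The lower median in females thus rested on the divergent samples, and the lower values of PSMD3, PSMC1 and PSMD4 did not.

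Of the activators, PSME1 (a subunit of the interferon-induced cap) was followed in every sample. In old females it read 10.27, 10.37, 10.32, 10.67 and 10.97 and in young females 10.26, 10.31, 10.15, 10.15 and 10.45. The ranges overlapped, and old females 5 and 6 lay above every young one. The change was 0.26 ± 0.16 (SE; unadjusted p = 0.136; limma adjusted p = 0.9996), 0.14 without old female 6 and 0.13 without the divergent samples. Males read 10.12, 10.31, 10.13, 9.75 and 10.10 in the young and 9.84 to 10.39, with a median of 10.13, in the old, a change of 0.049 ± 0.16.

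PSME3 is the nuclear activator and PSME4 a large single-chain activator. The 4 PSME3 probe sets were at 0.070 to 0.22 in males and at -0.32 to 0.051 in females, none with a standard error below 0.18. The means of the 3 PSME4 probe sets were lower in old animals of both sexes, by log2 changes of -0.24, -0.30 and -0.43 in males and -0.20, -0.11 and -0.25 in females. The brightest, 212222_at, read 10.93, 10.70, 10.44, 10.71 and 10.56 in young males and 9.59 to 10.53, with a median of 10.43, in old males. In females it read 10.30, 10.57, 9.79, 10.61 and 10.51 in the young and 10.50, 10.41, 10.86, 9.64 and 9.14 in the old. Groups overlapped in both sexes, and divergent samples gave the lowest value of each group but that of the young males. Its female change of -0.25 was -0.0029 without old female 6 and -0.43 without old female 3. Averaged over the sexes its change was -0.34 ± 0.19 (SE; unadjusted p = 0.0876; limma adjusted p = 0.985), and -0.15 without the divergent samples.

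PSMF1, the core inhibitor, was at 0.30 ± 0.26 in males and -0.38 ± 0.28 in females. Its difference of the age effects was 0.68 ± 0.38 (SE; unadjusted p = 0.0892; limma adjusted p = 0.9999), and 0.57 ± 0.26 without the divergent samples. The 3 regulatory assembly chaperones PSMD5, PSMD9 and PSMD10 had values of -0.52 ± 0.51, -0.20 ± 0.28 and -0.30 ± 0.24 in males, and -0.15 ± 0.53, -0.25 ± 0.30 and 0.075 ± 0.25 in females (SE). The core assembly chaperones PSMG1 and PSMG2 were at 0.27 ± 0.22 and -0.036 ± 0.17 in males and at 0.11 ± 0.23 and 0.19 ± 0.18 in females. PSMC3IP, a recombination cofactor, and PSME3IP1, a partner of PSME3, were at -0.067 ± 0.24 and -0.41 ± 0.54 in males and at -0.041 ± 0.25 and -0.51 ± 0.56 in females.

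Between the sexes, the proteasome probe sets again gave no call. In young animals PSME3 209853_s_at was lower in males by an unadjusted p of 0.0332 (-0.44 ± 0.19, SE), 1 of 58 members against 1.39% of all tested probe sets. In old animals 3 of 58 members had an unadjusted p below 0.05, against 4.09% of all tested. PSMC1 (0.37 ± 0.15) and PSMD3 (0.46 ± 0.18) were higher and PSME1 (-0.39 ± 0.16, SE) lower in old males than in old females, with a limma adjusted p of 0.999 for each. These contrasts share the old females with the age contrast described above.

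Most proteasome probe sets varied less between samples of a group than the median of all tested probe sets, a comparison not matched for level. The SD within groups had a median of 0.36 over the 58 probe sets against 0.46 over all tested probe sets, and 42 of 58 lay below that general median. The smallest was 0.203 for PSMC1, followed by 0.213 for PSMB1 (214288_s_at), 0.214 for PSMB4 (202244_at) and 0.216 for PSME1. PSMB8 varied most, with an SD of 1.42, a value that 0.882% of all tested probe sets exceeded, and PSMB10 came next at 1.03, exceeded by 4.28%. PSMB9 ranked 10 of 58 at 0.61. The mean level of PSMB8, 7.76, lies close to the filter. Of the other members with a mean near it, PSMB2 201404_x_at (7.76) had an SD of 1.01, PSME3IP1 (7.82) of 0.96 and PSME3 200988_s_at (7.67) of 0.34.

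Single samples differed as well. The median deviation of the 58 probe sets from their means over samples ran from -0.44 in old female 2 to 0.21 in old male 4 among the divergent samples, and from -0.048 to 0.19 in the other 15. The middle range of the deviations (interquartile range) was 0.58 to 0.76 in the divergent samples and 0.21 to 0.49 in the others. Over all tested probe sets it was 0.75 to 0.87 and 0.39 to 0.62, so the split was not particular to the members. Divergent samples were picked by low correlation over all tested probe sets, so a wider range there was partly built in. In old female 2, 46 of the 58 probe sets lay below their mean. The median deviation of all tested probe sets was -0.027 there, against -0.44 for the members.

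**Figure D5:**
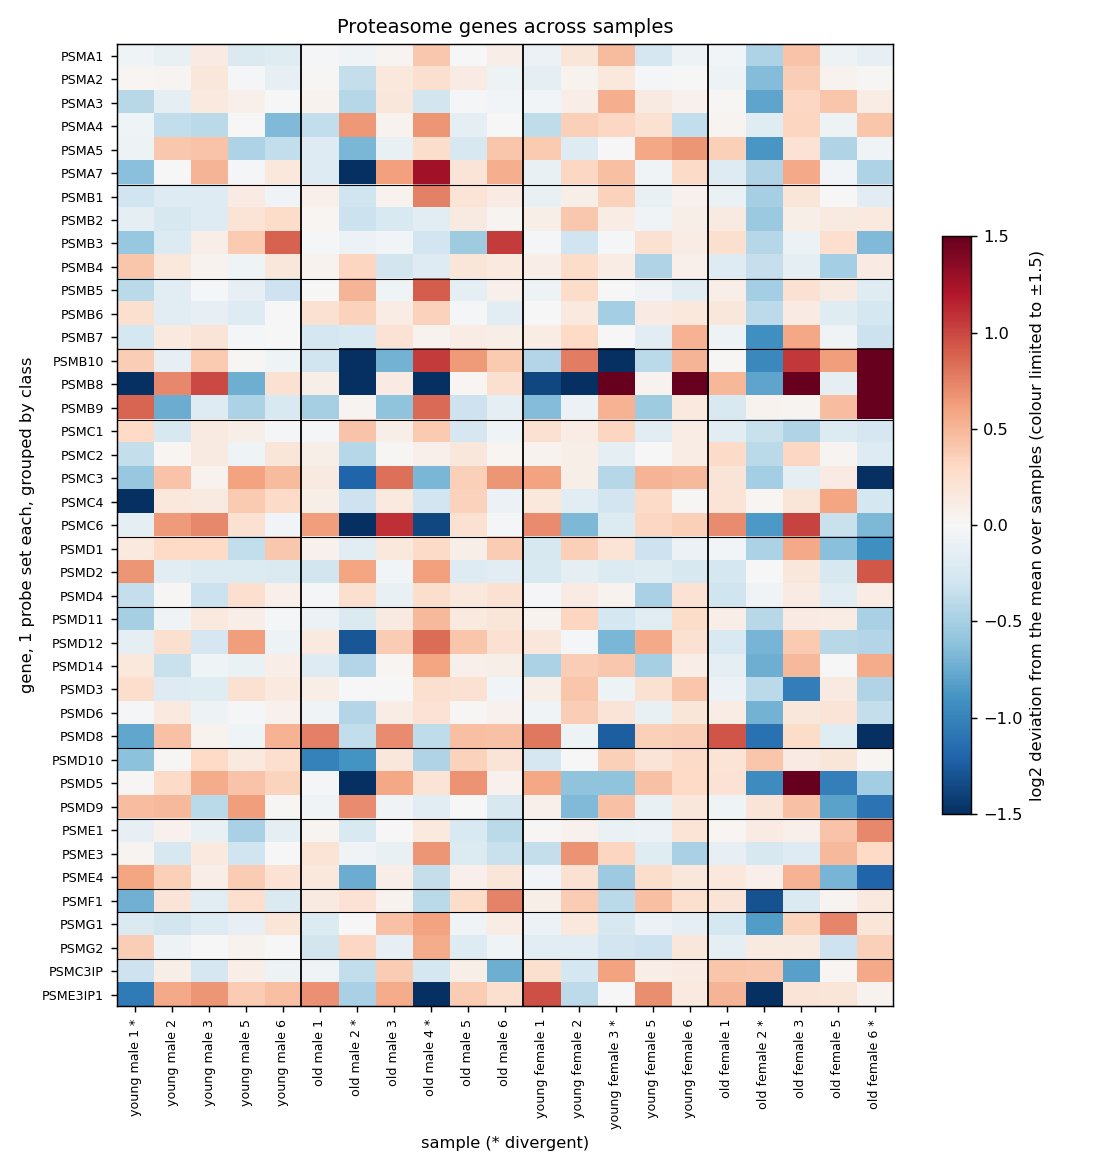
Deviation of each gene's level from its mean over the 21 samples (log2; colour scale limited to ±1.5), with 1 probe set per gene, the brightest, in rows grouped by class, and samples in columns by group; asterisks mark the 6 divergent samples. PSMB8 and PSMB10 have the most cells at the limits of the colour scale, and the divergent columns are more mottled than the others.

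Across the 15 other samples, the correlation of each probe set with the mean of the other proteasome genes was described, with no test, since all points share arrays and scaling. It was above 0 for 36 of 58 probe sets, with a median of 0.18, and above 0.5 for 12. It was highest for PSMB7 (0.82), PSMG2 (0.79), PSMD4 200882_s_at (0.76), PSMD5 (0.72) and PSMD2 (0.71). All 10 alpha-ring probe sets were above 0, with a median of 0.26. At the other end were PSMD3 (-0.65), PSME3 200987_x_at (-0.54) and PSMF1 (-0.49). PSMD3 also had the smallest p with age in females. Old female 3 had the lowest PSMD3 level of all samples, 8.25. The same sample had the highest median deviation of the members among the 15, 0.19. The correlation of PSMD3 without old female 3 was not computed, so whether it rested on that sample was not tested.

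Probe sets of 1 gene did not always point the same way. For 12 genes with more than 1 tested probe set, the signs of the male age change were the same for 6 and differed for 6 (PSMA2, PSMA7, PSMB1, PSMD1, PSMD12 and PSMD4). In females they were the same for 7 and differed for 5 (PSMA2, PSMB1, PSMB2, PSMD11 and PSME3). Between the PSMB1 probe sets the correlation of deviations was -0.41, and between the PSMD12 probe sets it was 0.63.

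Genes that work with the proteasome gave 0 calls in the age contrasts as well. Of all tested probe sets, 47.7% had higher means in old males and 45.6% in old females, the background for the counts below. Of 12 tested MHC class I presentation genes, 10 had higher means in old males (median 0.094) and 6 in old females (median 0.0037). In males HLA-B (0.44 ± 0.20, SE) was the only one of them with an unadjusted p below 0.05, against 3.36% of all tested probe sets. The divergent old male 4 had its highest value, 14.95. Of 15 tested interferon response genes, 10 were higher in old males (median 0.11) and 13 in old females (median 0.21). The array holds 26 genes of this list. Those below the filter and not tested were IRF7, IFIT1, IFI44L, IFI6, ISG15, ISG20, MX1, MX2, OAS1, USP18 and XAF1. The tested ones include the receptor and kinase genes IFNGR1, IFNGR2, JAK1 and JAK2. The summed intensity of this list on the array was 21011 in old female 6 and 9823.4 to 15174.2 in the other samples. The female values without old female 6 were not computed for this list. IFNGR1, a chain of the interferon gamma receptor, was at 0.59 ± 0.19 in males (unadjusted p = 0.00451; limma adjusted p = 0.9999) and OAS3, a sensor of viral RNA, at 0.67 ± 0.30. In females the leading ones were UBE2L6 (0.55 ± 0.32) and GBP2 (0.52 ± 0.36).

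Upstream of the proteasome, 4 of 5 tested ubiquitin and activating enzyme genes were higher in old males (median 0.11) and 1 of 5 in old females (median -0.049). Ubiquitin conjugating enzymes were split 8 to 7 in both sexes, with medians of 0.0076 and 0.025, and UBE2K had an unadjusted p of 0.0288 for the difference of the age effects (-0.76 ± 0.32, SE). Of 16 proteasome-bound and shuttle factors, 8 were higher in males (median 0.025) and 10 in females (0.037), with the deubiquitinase UCHL5 at 0.38 ± 0.22 in males and -0.23 ± 0.23 in females. Of 17 genes of VCP and ER-associated degradation, 10 and 9 were higher, with medians of 0.059 and 0.054.

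Of 16 regulators of proteasome genes and NRF2 targets, 10 were higher in old males (median 0.16) and 9 in old females (median 0.060). GCLC, which makes glutathione, was at 0.28 ± 0.13 averaged over the sexes (unadjusted p = 0.0455; limma adjusted p = 0.985). It was 1 of 16 with an unadjusted p below 0.05 there, against 4.38% of all tested probe sets. The muscle ubiquitin ligases had 2 of 5 higher in males and 1 of 5 in females, with medians of -0.077 and -0.11. Autophagy genes had 13 of 22 and 11 of 22 higher, with medians of 0.029 and 0.0072.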

How the data were processed

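The deposited intensities (linear, 1 per probe set; 22277 probe sets, 62 of them controls) were used as given. The sources used here do not state how the authors scaled them. The platform annotation gave 1 symbol for 19064 probe sets, several for 1043 and none for 2108. log2(intensity + 16) values of 24 arrays were quantile normalised, and the added 16 understates changes of dim genes. The 11108 probe sets with a mean at or above the median were tested. Groups and replicate numbers came from sample titles. A group-means model was fitted to 21 samples with limma 3.58.1 (R 4.3.3), eBayes with trend, Benjamini-Hochberg adjustment per contrast over all tested probe sets, threshold 0.05; the script was tested on simulated data. Pairs of arrays with r above 0.7 were averaged, and samples with a median r below 0.85 called divergent. Named in full were PSMB8, PSMB9, PSMB10, PSME1 and the 3 smallest p per age contrast; for related lists, up to 3 genes per list and contrast. Correlations used 2-sided permutation within groups. Members and lists were chosen with earlier results of these data known. Same-numbered samples had a median r of 0.065 (30 pairs, -0.43 to 0.51), so numbers were not taken to pair animals. The number of arrays limits precision. Alternatives covered scaling, pseudocounts of 1 and 64, no filter, 24 arrays, divergent samples, array weights, the actin ratio, no trend, a replicate block and each sample left out.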

Additional observations from a re-analysis of the deposited data

Results flagged for a closer look

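PSMD4 (211609_x_at) was flagged because old male 2, a divergent sample, read 9.11 while the other 5 old males lay between 10.62 and 10.80. The median deviation of the tested proteasome probe sets was flagged because young male 1, also divergent, was at -0.13 while the other 4 young males lay between 0.0044 and 0.054. Of 64 groups checked for a sample far from the others, these 2 were flagged, and chance flags about 1 in 20 groups.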

How the results depend on the processing

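None of the 48 age contrasts of the named proteasome genes passed 0.05 under any of 31 settings (lowest limma adjusted p 0.527), nor did any other tested member under them (lowest 0.433, males, array weights). Over all probe sets, the 2 calls in males became 25 with array weights, 1 with the actin ratio as a covariate and 0 without the trend, with median-centred arrays, with no filter or with a pseudocount of 64. Leaving out 1 sample at a time gave 0 to 2, and 18 of 21 removals left fewer than 2. The sex-averaged contrast went from 0 to 1 call without the divergent samples and to 1 with the replicate block, where the numbers do not pair the samples (8 of 21 correlated best with their own number). With no filter, the calls between the sexes went from 3 to 6 in old and from 3 to 5 in young animals.

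Some changes turned sign. Without the divergent samples these were PSMA2 averaged over the sexes (0.0050), PSMB1 (0.045) and PSMB5 (0.16) in females, PSMC1 (-0.054) and PSMD4 (0.040) in males, PSMB5 (0.47 to -0.032) and PSME4 (0.031) for the difference of the age effects, and r of PSMB9 with TAP1 (0.31 to -0.089). With array weights they were PSMB10 (-0.39 to 0.010), PSMC1 (-0.054) and PSMD4 (0.0052) in males, PSMB5 (0.057) in females and PSME4 (0.016) for the difference. With the replicate block they were PSMB9 (-0.15), PSMC1 (-0.018) and PSME1 (-0.0018) in males and PSMB1 averaged (-0.010). With median-centred arrays PSMB1 averaged was at -0.0033 and PSMC1 in males at -0.0028, with 24 arrays PSMB8 averaged at -0.023, and with the actin covariate PSMA4 in females at -0.030. The causes were not tested.

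Leaving out 1 sample at a time also turned the sign within these ranges: in females PSMA2 -0.025 to 0.13, PSMA4 -0.027 to 0.16 and PSMB5 -0.11 to 0.070; in males PSMB9 -0.15 to 0.30, PSMB10 -0.66 to 0.099, PSMC1 -0.032 to 0.11, PSMD3 -0.023 to 0.089, PSMD4 -0.24 to 0.11 and PSME1 -0.033 to 0.11. PSME4 in females kept its sign at -0.43 to -0.0029. Averaged over the sexes the ranges were PSMB1 -0.010 to 0.098, PSMB8 -0.066 to 0.47 and PSMB10 -0.0025 to 0.44, and for the difference PSME4 -0.42 to 0.0068. The members' median ran from -0.040 to 0.061 in males and from -0.17 to -0.0088 in females.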
